A study of Mus musculus with 6 samples.

Results

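The genes examined here encode the enzymes that build glycosaminoglycan chains, the long sulfated sugar chains of proteoglycans. The set was a list of 39 gene symbols covering supply of activated sugar and sulfate, the linker to the core protein, and synthesis and sulfation of chondroitin, dermatan and heparan sulfate, and all 39 were found among 53819 listed genes. RNA was sequenced from flexor digitorum longus (FDL) tendons of the mouse hind paw that had been transected and repaired at 10 to 12 weeks of age, in males and females, with 1 tendon per library. There were 3 DTRScxLin tendons (genotype Scx-Cre+; DTR F/+) and 3 WT tendons (Scx-Cre-; DTR F/+ littermates), so both groups carried the floxed diphtheria toxin receptor allele. Both groups also received 5 daily injections of diphtheria toxin (DT), from day 14 to day 18 after surgery, and were harvested at D28. In DTRScxLin mice Scx-Cre directs the receptor to the *Scleraxis* lineage as a whole and not to a single tendon cell type, and how completely DT removed these cells was not measured by the study. The comparison addresses how depletion of these cells left the transcriptome of the healing tendon. The titles of the samples place D28 after depletion, whereas the protocol places it after surgery.

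Chondroitin, dermatan and heparan sulfate all start from the same short linker of xylose, galactose and glucuronic acid on a serine of the core protein. Addition of N-acetylgalactosamine then commits a chain to chondroitin, and addition of N-acetylglucosamine commits it to heparan. Sulfotransferases place sulfate at set positions, and epimerization of glucuronic to iduronic acid turns chondroitin into dermatan sulfate. In tendon the main carriers are decorin and biglycan, small proteoglycans with chondroitin or dermatan sulfate chains that bind collagen fibrils, while heparan sulfate is found on cell surface and basement membrane proteoglycans.

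Levels are given as normalized counts, which are read counts scaled to a common library size with TMM factors, and levels of different genes are compared per kb of exon. Each library held between 42744138 and 48854310 counts. *Scx*, the gene that defines the depleted lineage, had 2201, 2703 and 3063 normalized counts in the WT libraries and 3475, 3406 and 3531 in DTRScxLin replicates 1 to 3, so that it was at no lower level at harvest. *Tnmd* was also present in every library, and the summed level of 6 tendon markers was 971716 to 1163199 in WT and 1172759 to 1488315 in DTRScxLin tendons. This sum mostly reflects its abundant members. Of the 6, 5 were fitted higher and 1 (*Fmod*, -0.17) lower. The groups were apart for *Scx* and *Thbs4* and overlapped for *Fmod*, *Tnmd*, *Mkx* and *Col1a1*. *Thbs4* had a mean of 253130 normalized counts in WT and 396149 in DTRScxLin tendons. Libraries also held transcripts of other tissues. A sum of 6 skeletal muscle markers was 407408 to 571219 normalized counts in WT and 78405, 548367 and 149772 in DTRScxLin replicates 1 to 3, and all 6 were fitted lower without passing an unadjusted p of 0.05. A sum of 6 mast cell markers was 3540 to 4735 in WT and 1048 to 3358 in DTRScxLin tendons, with 3 of 6 at an unadjusted p under 0.05. A sum of 6 keratinocyte markers was 124702, 76604 and 190 in WT and 189, 252 and 10466 in DTRScxLin replicates 1 to 3, and 4 of the 6 were at 0 in at least 1 library. In these whole tendons, fewer cells of a type and less RNA per cell cannot be told apart.

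Most glycosaminoglycan synthesis genes had slightly higher transcript levels in DTRScxLin than in WT tendons, and no single gene passed the test over all genes. Of the 39 genes, 38 passed the filter on low counts, 29 were fitted higher and 9 lower, and the median log2 fold change (DTRScxLin minus WT) was 0.14 against 0.0082 over all 17496 genes tested. The quasi-likelihood test of edgeR called 0 of the 38 at the adjusted threshold of 0.05, with adjusted p-values from 0.369 to 0.992, and it called 0% of all genes. At an unadjusted p under 0.05, 7 of the 38 were higher (18.4%, against 5.52% of all genes tested) and 2 were lower (5.26%, against 5.45%). DESeq2 also called 0 of these genes, while it called 2.65% of all genes, and its smallest adjusted p-values were 0.0796 for *Hs3st3b1* and 0.0818 for *Csgalnact1*. limma-voom called 0 of these genes and 0 of all genes.

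Each DTRScxLin library was above each WT library for 12 of the 38 genes (31.6%, against 8.96% of all genes tested). These were *Ugdh*, *Papss1*, *Papss2*, *Xylt2*, *B4galt7*, *Csgalnact1*, *Chpf*, *Chpf2*, *Dse*, *Dsel*, *Ust* and *Glce*. Each DTRScxLin library was below each WT library for *Chst3* and *Hs3st3b1* (5.26%, against 7.85% of all genes), and the groups overlapped for the other 24. Among the members the direction differed with abundance, in a split chosen after the values were seen. Of the 29 genes whose mean reached 1000 normalized counts, 26 were fitted higher with a median log2 fold change of 0.18, whereas of the 9 with a lower mean, 3 were fitted higher with a median of -0.29. With the muscle level as a covariate, 18 of the 29 and 3 of the 9 were fitted higher. Of all genes tested, 51.5% were fitted higher in the main fit. They were not split by abundance, so whether the difference is particular to the members is not known.

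The libraries contributed unequally. DTRScxLin replicate 1 had the highest level of 20 of the 38 genes, and WT replicate 1 the lowest of 14. Relative to the WT mean, the median log2 level of the 38 genes was 0.23, 0.03 and 0.12 in DTRScxLin replicates 1 to 3. Without DTRScxLin replicate 1 the median log2 fold change was 0.088, and 2 genes were higher at an unadjusted p under 0.05, against 3.5% of all genes in the same fit. The number was 1 without WT replicate 1 (against 3.86% of all genes), 1 without WT replicate 2 (against 2.81%) and 12 without DTRScxLin replicate 2 (against 6.95%). DTRScxLin replicate 1, which weighed most, was also the library with the lowest muscle and mast cell sums. WT replicate 1 had the highest keratinocyte sum, 124702, against 76604 and 190 in WT replicates 2 and 3. The first principal component over all genes held 60.2% of the variance. WT replicates 1 and 2 and DTRScxLin replicate 3 lay on its positive side. The keratinocyte level was not fitted as a covariate. With the muscle level as a covariate, the median was 0.033, 21 of the 38 genes were fitted higher, and 1 (*Ugdh*, unadjusted p = 0.0494 in edgeR) was higher at an unadjusted p under 0.05, against 3.18% of all genes. Muscle sums of DTRScxLin replicates 1 and 3 (78405 and 149772) lay below those of all WT libraries (407408 or more). This fit therefore cannot fully separate muscle level from genotype. By *Xist* and Y-linked counts, WT replicate 2 and DTRScxLin replicates 2 and 3 came from females, and with sex as a term the median was 0.17.

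**Figure D1:**
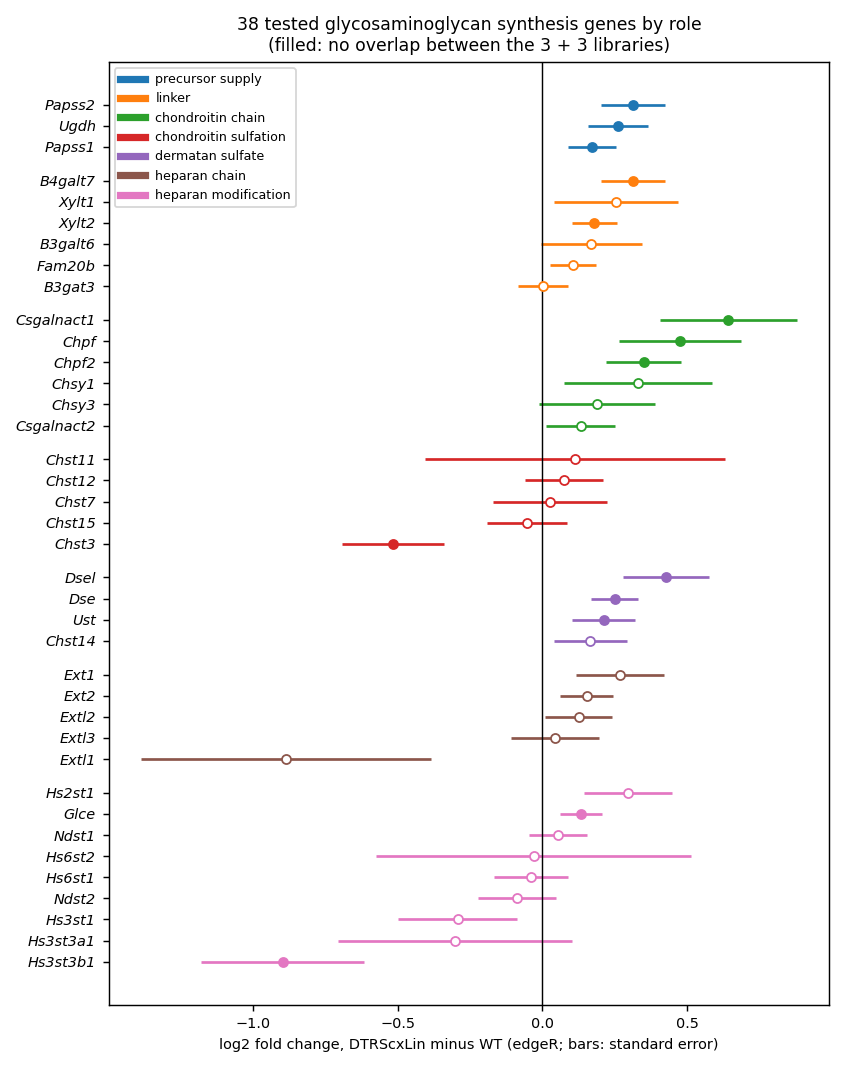
Log2 fold change of each of the 38 tested genes (x axis, DTRScxLin minus WT, from edgeR), with bars for the standard error, ordered within roles. Filled points mark genes whose 3 DTRScxLin and 3 WT libraries did not overlap. All 15 genes of precursor supply, linker and chondroitin chain lie above 0, of which *B3gat3*, *Xylt1*, *Chsy1* and *Chsy3* turned negative with the muscle covariate, and 6 of the 9 heparan modification genes lie below it.

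The promoters of 4 of these genes are printed to show the sequence next to their start sites. *Chpf* and *Dsel* were taken from the genes that were higher without overlap, and *Chst3* and *Hs3st3b1* were those lower without overlap. The 4 promoters do not mark the ends of the range of fitted values. They are RefSeq windows on GRCm38.p6, from 250 bases before to 50 after the annotated start, 5′ to 3′ on the gene's strand. Capitals mark an E-box (CANNTG, the core bound by basic helix-loop-helix factors such as Scleraxis) or a GC box (GGGCGG or its reverse complement CCGCCC, bound by Sp-family factors).
Chpf, chr1:75479422-75479721, minus strand: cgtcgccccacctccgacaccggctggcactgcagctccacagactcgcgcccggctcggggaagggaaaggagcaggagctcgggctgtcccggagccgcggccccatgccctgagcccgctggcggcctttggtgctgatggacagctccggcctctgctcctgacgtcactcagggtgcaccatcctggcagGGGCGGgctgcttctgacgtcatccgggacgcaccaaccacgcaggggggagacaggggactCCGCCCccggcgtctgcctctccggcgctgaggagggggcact
Dsel, chr1:111864869-111865168, minus strand: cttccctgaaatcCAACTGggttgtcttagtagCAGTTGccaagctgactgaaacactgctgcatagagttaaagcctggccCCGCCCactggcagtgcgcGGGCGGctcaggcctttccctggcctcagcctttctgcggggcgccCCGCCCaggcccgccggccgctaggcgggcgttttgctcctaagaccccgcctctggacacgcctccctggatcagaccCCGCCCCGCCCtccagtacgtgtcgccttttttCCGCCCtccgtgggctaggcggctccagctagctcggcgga
Chst3, chr10:60219211-60219510, minus strand: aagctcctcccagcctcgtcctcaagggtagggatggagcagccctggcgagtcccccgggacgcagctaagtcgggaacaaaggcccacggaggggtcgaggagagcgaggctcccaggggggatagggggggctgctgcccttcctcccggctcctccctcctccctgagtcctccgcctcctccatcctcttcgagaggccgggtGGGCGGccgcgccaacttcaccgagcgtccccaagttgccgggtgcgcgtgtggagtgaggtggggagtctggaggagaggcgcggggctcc
Hs3st3b1, chr11:63922235-63922534, minus strand: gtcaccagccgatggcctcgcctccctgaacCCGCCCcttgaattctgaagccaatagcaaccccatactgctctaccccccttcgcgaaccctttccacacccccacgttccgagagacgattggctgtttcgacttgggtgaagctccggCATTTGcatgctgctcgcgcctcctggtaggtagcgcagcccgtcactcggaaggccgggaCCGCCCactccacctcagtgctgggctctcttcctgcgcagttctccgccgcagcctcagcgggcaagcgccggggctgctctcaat
The *Dsel* window holds 2 E-boxes and 6 GC boxes, 2 of which overlap. *Chpf* has 0 E-boxes and 2 GC boxes, *Chst3* 0 and 1, and *Hs3st3b1* 1 and 2. The numbers of either motif overlapped between the higher and the lower genes. RefSeq windows were matched for 33 of the 39 genes, but not for *Csgalnact1*, the gene with the highest fitted value. A GC box was found for 26 of the 33 (78.8%, against 38.2% of 27025 genes) and an E-box for 18 (54.5%, against 75.0%), counting a gene once if any of its windows held the motif. The 27025 genes were all those with a window and were not limited to the genes tested here. The shares are therefore not matched for expression or base content. A match is a run of letters and not a measured binding site.

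The 3 genes of precursor supply were all fitted higher, without overlap between the groups, and 0 passed the adjusted test. *Ugdh* makes UDP-glucuronic acid, a building block of all these chains and of hyaluronan, and it was the most abundant gene of its role per kb. It had 5971, 6432 and 7278 normalized counts in the WT libraries (replicates 1 to 3) and 7738, 8419 and 7439 in DTRScxLin replicates 1 to 3. The margin between the groups was narrow, with WT replicate 3 just under DTRScxLin replicate 3, and the log2 fold change was 0.26 (standard error 0.10, unadjusted p = 0.0357, adjusted p = 0.441 in edgeR's quasi-likelihood test). *Papss1* and *Papss2* encode the enzymes that make PAPS, the sulfate donor of every sulfotransferase. *Papss2* had 1788, 1974 and 2206 normalized counts in the WT libraries and 2506, 2232 and 2677 in DTRScxLin replicates 1 to 3, again without overlap, and the log2 fold change was 0.31 (standard error 0.11, adjusted p = 0.403 in edgeR). *Papss1* had 2413, 2352 and 2703 in WT and 2841, 2752 and 2823 in DTRScxLin tendons. Its DTRScxLin libraries lay close together just above WT replicate 3 (log2 fold change 0.17, standard error 0.083, adjusted p = 0.482 in edgeR). The summed level of the 3 genes per kb was 2322 ± 209 in WT and 2748 ± 2.12 in DTRScxLin tendons (SD, n = 3 each).

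All 6 linker genes were fitted higher, by a median of 0.17, and for 2 the groups did not overlap. With the muscle covariate 4 of the 6 were fitted higher, with a median of 0.082. *B4galt7*, which adds the first galactose to xylose, had 913, 877 and 990 normalized counts in the WT libraries and 1124, 1033 and 1296 in DTRScxLin replicates 1 to 3. DTRScxLin replicate 3 was the highest, and the log2 fold change was 0.31 (standard error 0.11, unadjusted p = 0.0244, adjusted p = 0.414 in edgeR). *Xylt2*, a xylosyltransferase that starts the linker, had 1483, 1589 and 1569 in WT and 1790, 1673 and 1792 in DTRScxLin tendons. The lowest DTRScxLin library was above the highest WT library (log2 fold change 0.18, standard error 0.079, adjusted p = 0.462 in edgeR). The related *Xylt1* overlapped at 1842 to 2483 in WT and 1859 to 3186 in DTRScxLin tendons, with a fitted value of 0.26 and a standard error of 0.21, and with the muscle covariate its value was -0.13. *B3gat3*, which closes the linker with glucuronic acid and was the most abundant of the role per kb, had 1470, 1599 and 1571 in WT and 1558, 1451 and 1643 in DTRScxLin replicates 1 to 3. Its groups lay over each other at a log2 fold change of 0.0031 (standard error 0.086), whose sign changed with the normalization, the filter and the library left out. *B3galt6*, which adds the second galactose, and *Fam20b*, which phosphorylates xylose, overlapped at fitted values of 0.17 and 0.10.

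All 6 chondroitin chain enzymes were fitted higher, with a median log2 fold change of 0.34, and 0 passed the adjusted test. The median was 0.17 without DTRScxLin replicate 1, below the 0.27 of precursor supply and the 0.18 of the dermatan sulfate genes in that fit, and it was 0.10 with the muscle covariate, where 4 of the 6 were fitted higher. *Csgalnact1*, which adds the N-acetylgalactosamine that commits a chain to chondroitin, had 3162, 2987 and 2743 normalized counts in the WT libraries and 6480, 3540 and 3855 in DTRScxLin replicates 1 to 3. All DTRScxLin libraries were above WT, but replicate 1 stood far above the others. The log2 fold change was 0.64 (standard error 0.24, unadjusted p = 0.0327, adjusted p = 0.433 in edgeR), and it was 0.31 without DTRScxLin replicate 1 and 0.23 with the muscle covariate. *Chpf*, a subunit of the chondroitin polymerase and the most abundant gene of the role per kb, had 3627, 4155 and 4137 in WT and 7500, 4334 and 4742 in DTRScxLin tendons. The same library was far ahead, and DTRScxLin replicate 2 only just cleared the WT range (log2 fold change 0.48, standard error 0.21, adjusted p = 0.466 in edgeR). Without DTRScxLin replicate 1 the value was 0.19, and with the muscle covariate it was 0.08.

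*Chpf2*, a second polymerase subunit, had 3127, 3121 and 3335 normalized counts in the WT libraries and 4904, 3522 and 3791 in DTRScxLin replicates 1 to 3. It repeated the order of *Chpf* among the DTRScxLin libraries, and its log2 fold change was 0.35 (standard error 0.13, unadjusted p = 0.0277, adjusted p = 0.423 in edgeR), or 0.19 without DTRScxLin replicate 1. Of its exon bases, 44.1% lie opposite *Smarcd3* on the other strand, and whether counting used strand is not given in the sources used here, so reads of these genes may not be separated. The polymerases *Chsy1* and *Chsy3* overlapped at fitted values of 0.33 (standard error 0.25) and 0.19 (standard error 0.20), and the second initiating enzyme, *Csgalnact2*, overlapped at 0.13 (standard error 0.12). *Chsy1* was at 0.042 without DTRScxLin replicate 1, and with the muscle covariate *Chsy1* was at -0.17 and *Chsy3* at -0.14. For *Chsy1*, DTRScxLin replicate 1 had 4301 normalized counts and DTRScxLin replicate 2 had 2139, which was below every WT library (2215 to 2824).

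The chondroitin sulfotransferases had a median of 0.03 over the 5 genes tested, with 3 fitted higher. This median was -0.20 without DTRScxLin replicate 1 and -0.29 with the muscle covariate, where 0 of the 5 were fitted higher. *Chst3*, which places sulfate at the 6-O position, was lower. It had 269, 269 and 314 normalized counts in the WT libraries and 172, 207 and 217 in DTRScxLin replicates 1 to 3. All DTRScxLin libraries were below WT, and the log2 fold change was -0.52 (standard error 0.18, unadjusted p = 0.0196, adjusted p = 0.395 in edgeR). *Chst7*, the other 6-O enzyme, overlapped at 143 to 190 in WT and 161 to 183 in DTRScxLin tendons. *Chst12*, a 4-O sulfotransferase that held 60.8% of the summed level of the role per kb, had 1977, 2555 and 2612 in WT and 2802, 2236 and 2488 in DTRScxLin replicates 1 to 3. Its groups overlapped, with WT replicate 1 the lowest library and DTRScxLin replicate 1 the highest (log2 fold change 0.08, standard error 0.13), and the sign changed with the muscle covariate, at -0.11.

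*Chst11*, the other abundant 4-O enzyme, was the most variable of the role, with 2765, 1611 and 1498 normalized counts in the WT libraries and 3413, 1034 and 1906 in DTRScxLin replicates 1 to 3. The fitted value was 0.11 with a standard error of 0.52. *Chst13*, also a 4-O enzyme, had 1, 2 and 1 reads in WT and 4, 9 and 9 reads in DTRScxLin libraries and was not tested. *Chst15*, which adds a further sulfate to 4-O-sulfated chondroitin, overlapped at a fitted value of -0.05, and 17.9% of its exon bases lie opposite an antisense gene. The ratio of 6-O to 4-O transcripts per kb was 0.0794, 0.0873 and 0.0976 in WT and 0.0607, 0.0919 and 0.0792 in DTRScxLin replicates 1 to 3, and the groups overlapped.

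All 4 dermatan sulfate genes were fitted higher, with a median of 0.23, and 0 passed the adjusted test. They were also all fitted higher with the muscle covariate, with a median of 0.17. *Dsel* and *Dse* encode the epimerases that convert glucuronic to iduronic acid, and *Dsel* had the highest level per kb of all 39 genes, 1400 in WT and 1881 in DTRScxLin tendons. It had 8631, 7181 and 8384 normalized counts in the WT libraries and 13200, 9775 and 9541 in DTRScxLin replicates 1 to 3. DTRScxLin replicate 1 was the highest and the others were also above WT (log2 fold change 0.43, standard error 0.15, unadjusted p = 0.0217, adjusted p = 0.403 in edgeR), and without DTRScxLin replicate 1 the value was 0.26. *Dse* had 5114, 5459 and 5489 in WT and 6776, 6297 and 6016 in DTRScxLin replicates 1 to 3. The gap between the groups was wider than the range within WT, and the log2 fold change was 0.25 (standard error 0.083, unadjusted p = 0.0177, adjusted p = 0.389 in edgeR) and 0.20 with the muscle covariate. *Ust*, which sulfates the uronic acid, had 919, 1079 and 1111 in WT and 1292, 1190 and 1118 in DTRScxLin tendons. Its lowest DTRScxLin library was close to WT replicate 3 (log2 fold change 0.21, standard error 0.11, adjusted p = 0.498 in edgeR). *Chst14*, the dermatan 4-O sulfotransferase, overlapped at a fitted value of 0.16.

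**Figure D2:**
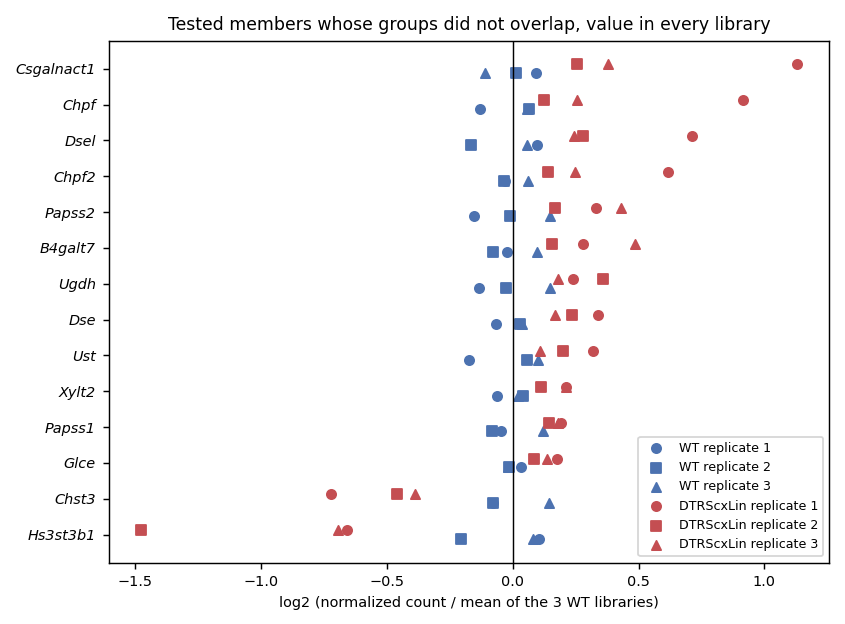
Level of the 14 tested genes whose groups did not overlap, as log2 of the normalized count over the mean of the 3 WT libraries (x axis), with blue symbols for WT and red symbols for DTRScxLin replicates 1 to 3. *Csgalnact1*, *Chpf*, *Dsel* and *Chpf2* are set apart by DTRScxLin replicate 1, whereas *Papss2*, *B4galt7*, *Ugdh* and *Dse* are not.

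Among the heparan chain enzymes the groups overlapped for all 5 genes. *Ext1*, which forms the heparan polymerase with *Ext2* and was the most abundant of the role per kb, had 6189, 5295 and 5304 normalized counts in the WT libraries and 8300, 5656 and 6265 in DTRScxLin replicates 1 to 3. DTRScxLin replicate 2 fell within the WT range (log2 fold change 0.27, standard error 0.15, adjusted p = 0.528 in edgeR), and the value was 0.087 without DTRScxLin replicate 1 and 0.021 with the muscle covariate. *Ext2*, *Extl2* and *Extl3* had fitted values of 0.15, 0.12 and 0.04. *Extl1*, a related glycosyltransferase that was singled out after its values were seen, was the exception, with 500, 485 and 367 in WT and 110, 435 and 186 in DTRScxLin replicates 1 to 3. DTRScxLin replicates 1 and 3 were below WT and replicate 2 was within the WT range, the same libraries that were low and high in muscle markers. The log2 fold change was -0.89 (standard error 0.50, adjusted p = 0.539 in edgeR). Without DTRScxLin replicate 2 it was -1.60 with an adjusted p of 0.0306, which made *Extl1* the 1 gene of the 38 called in that fit, where 3.02% of all genes were called. With the muscle covariate the value was -0.15.

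The heparan modification enzymes had a median of -0.04, with 3 of 9 fitted higher. *Hs3st3b1*, a 3-O sulfotransferase, had 157, 127 and 155 normalized counts in the WT libraries and 92.7, 52.6 and 90.4 in DTRScxLin replicates 1 to 3. All DTRScxLin libraries were below WT, replicate 2 the most (log2 fold change -0.90, standard error 0.28, unadjusted p = 0.0135, adjusted p = 0.369 in edgeR), and with the muscle covariate the value was -1.34 (unadjusted p = 0.00446, adjusted p = 0.500 in edgeR). Its close paralog *Hs3st3a1* overlapped at 34.5 to 93.5 in WT and 41.2 to 64.7 in DTRScxLin tendons. Of the exon bases of *Hs3st3a1*, 32.9% lie opposite *F930015N05Rik* on the other strand, so its count may include reads of that gene. The paralogs have near-identical sulfotransferase sequences, so reads may have been split between them or dropped. The third 3-O enzyme, *Hs3st1*, overlapped at a fitted value of -0.29 (standard error 0.21).

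*Glce*, the epimerase of heparan chains, was the member of this role with every DTRScxLin library above WT, at 2067, 2002 and 1996 normalized counts in the WT libraries and 2283, 2145 and 2221 in DTRScxLin replicates 1 to 3. The difference was small and the libraries of each group were close together (log2 fold change 0.13, standard error 0.073, adjusted p = 0.520 in edgeR). *Ndst1*, which replaces acetyl by sulfate on glucosamine and was the most abundant of the role per kb, had 6609, 6902 and 6010 in WT and 7210, 6092 and 6951 in DTRScxLin tendons. These groups lay over each other at 0.05 (standard error 0.099), and the sign changed with the muscle covariate, at -0.058. *Ndst2*, of the same function, had a fitted value of -0.09 and *Hs2st1*, the 2-O sulfotransferase, one of 0.30 (standard error 0.15), both with overlap. The 6-O sulfotransferase *Hs6st1* was at -0.04. Its relative *Hs6st2* had 141, 212 and 185 in WT and 74.2, 332 and 120 in DTRScxLin replicates 1 to 3, so that DTRScxLin replicate 2 was the highest of all libraries and the other two were the lowest.

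**Figure D3:**
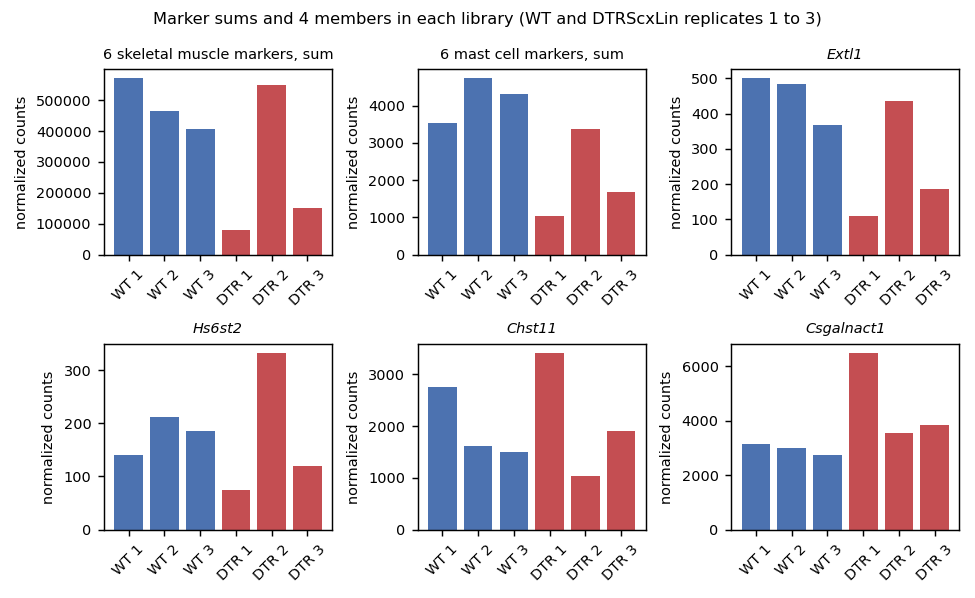
Summed normalized counts of 6 skeletal muscle markers and of 6 mast cell markers, and normalized counts of *Extl1*, *Hs6st2*, *Chst11* and *Csgalnact1*, in each library (blue bars, WT replicates 1 to 3, and red bars, DTRScxLin replicates 1 to 3). In DTRScxLin replicate 2 the muscle sum, *Extl1* and *Hs6st2* are high and *Chst11* is low, and in DTRScxLin replicate 1 the reverse is seen. The WT libraries do not repeat this for *Hs6st2* and *Chst11*. Among them, replicate 1 has the highest muscle sum and *Extl1*, but also the highest *Chst11* and the lowest *Hs6st2*.

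Set side by side by summed level per kb, the chondroitin chain enzymes had 3933 ± 58.7 in WT and 5091 ± 1140 in DTRScxLin tendons (SD, n = 3 each), a ratio of 1.29 that was 1.13 without DTRScxLin replicate 1. The dermatan sulfate genes had a ratio of 1.25 (1.16 without that library), precursor supply 1.18 (1.18), the linker 1.11 (1.08), the heparan chain 1.09 (1.02), chondroitin sulfation 1.04 (0.924) and heparan modification 1.04 (0.989). The order of the roles thus depended on DTRScxLin replicate 1, without which precursor supply was first. Over all 39 genes the ratio was 1.17, and 1.09 without that library. The summed chondroitin chain level divided by the summed heparan chain level was 1.78, 1.92 and 1.94 in WT and 2.49, 2.03 and 2.12 in DTRScxLin replicates 1 to 3. Each DTRScxLin library was above each WT library, with DTRScxLin replicate 1 far ahead and replicate 2 close to the WT range. All other ratios computed among these genes, such as *Xylt1* to *Xylt2*, *Ext1* to *Ext2* and *Dsel* to *Dse*, overlapped between the groups. How often such a ratio separates the groups for other genes was not computed. In the chondroitin and dermatan genes together 13 of 15 were fitted higher (median log2 fold change 0.19), and in the heparan genes 7 of 14 (median 0.0056). With the muscle covariate the numbers were 8 of 15 (median 0.054) and 6 of 14 (median -0.10), and without DTRScxLin replicate 1 the medians were 0.14 and -0.068.

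**Figure D4:**
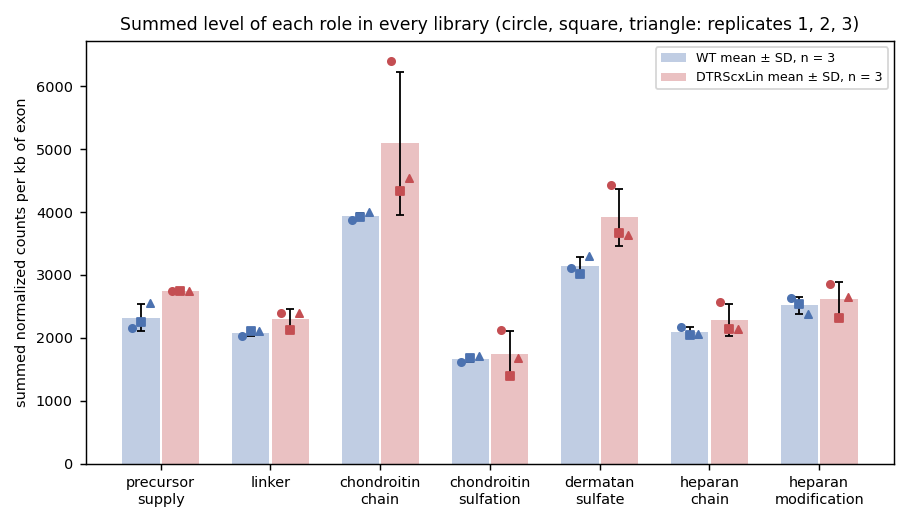
Summed normalized counts per kb of exon for each role (y axis) in every library, with bars for the mean and error bars for the SD (n = 3 for each group). DTRScxLin libraries lie above WT libraries for precursor supply, linker, chondroitin chain and dermatan sulfate. For the linker the gap is narrow, with WT replicate 3 at 2115 and DTRScxLin replicate 2 at 2130. DTRScxLin replicate 1 is the highest library for all 7 roles. It is nearly level with DTRScxLin replicates 2 and 3 for precursor supply (2750, 2748 and 2746) and with replicate 3 for the linker (2393.2 and 2392.8).

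Neighbouring steps of the pathway were read from 4 further lists in the same fit, and edgeR called 0 genes in each. Counts at an unadjusted p under 0.05 compare with 5.52% of all genes higher and 5.45% lower. Of 19 genes of sugar and sulfate supply, 13 were fitted higher, 4 of them (21.1%) at an unadjusted p under 0.05, and 0 were lower at that threshold (median log2 fold change 0.12). *Pgm3*, which acts in the synthesis of UDP-N-acetylglucosamine, had 1225, 1197 and 1389 normalized counts in the WT libraries and 1635, 1794 and 1764 in DTRScxLin replicates 1 to 3. This separation amounted to 0.45 on the log2 scale (standard error 0.093, adjusted p = 0.274 in edgeR), and DESeq2 called the gene with an adjusted p of 0.0197. *Uxs1*, which makes the UDP-xylose that starts the linker from the product of *Ugdh*, had 2179 ± 95.7 in WT and 2559 ± 51.0 in DTRScxLin tendons (SD, n = 3 each), without overlap. *Bpnt2*, a phosphatase that clears the by-product of sulfation in the Golgi, had 6594 ± 244 and 7678 ± 385 (SD, n = 3 each), also without overlap. The most abundant gene of the list, *Ugp2*, overlapped at -0.15.

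Of 22 genes of chain removal, 18 were fitted higher, 2 (9.09%) at an unadjusted p under 0.05, and 1 (4.55%) was lower at that threshold (median 0.11), shares near those of all genes. *Arsb*, a lysosomal sulfatase that acts on chondroitin and dermatan sulfate, had 3110, 3114 and 3307 normalized counts in the WT libraries and 4946, 3832 and 4127 in DTRScxLin replicates 1 to 3. All DTRScxLin libraries were above WT, replicate 1 the most (log2 fold change 0.44, standard error 0.11, adjusted p = 0.307 in edgeR, 0.0435 in DESeq2). *Hpse2*, a relative of heparanase, was the lower gene at -1.03 (standard error 0.36, adjusted p = 0.409 in edgeR), without overlap. The most abundant gene of this list, *Sulf2*, overlapped at 0.19. Of 10 tested genes for hyaluronan, keratan sulfate and rarer sulfation, 6 were fitted higher, 2 (20%) at an unadjusted p under 0.05, and 1 (10%) was lower (median 0.10). The hyaluronan synthase *Has2* had 934, 820 and 982 in WT and 1114, 1167 and 1404 in DTRScxLin tendons, without overlap (log2 fold change 0.43, standard error 0.12, adjusted p = 0.347 in edgeR). *B4galt1*, a galactosyltransferase and the most abundant of that list, was at 0.35 (standard error 0.14), and *Chst5*, a sulfotransferase, was lower at -0.31 (standard error 0.13), both without overlap.

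The core proteins that carry the chains were mixed, with 17 of 26 fitted higher, 2 (7.69%) higher and 1 (3.85%) lower at an unadjusted p under 0.05, shares near those of all genes, and a median of 0.12. Decorin (*Dcn*), the most abundant, had 306826 ± 25339 normalized counts in WT and 314502 ± 53570 in DTRScxLin tendons (SD, n = 3 each), and the groups overlapped. *Spock2*, a heparan sulfate proteoglycan of the testican family, had 644, 730 and 706 in WT and 407, 441 and 404 in DTRScxLin replicates 1 to 3. The groups were far apart relative to the spread within them (log2 fold change -0.73, standard error 0.11, adjusted p = 0.199 in edgeR, 0.000121 in DESeq2). *Epyc*, a small proteoglycan, was at 0.85 (standard error 0.23, adjusted p = 0.337 in edgeR, 0.0174 in DESeq2), and *Cd44*, a hyaluronan receptor that can carry chains, at 0.38 (standard error 0.12, adjusted p = 0.360 in edgeR), both without overlap.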

How the data were processed

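Bulk RNA-seq counts of 3 DTRScxLin and 3 WT FDL tendons were used. The authors demultiplexed and cleaned single-end reads, used featureCounts to count reads on genes, and deposited these raw counts, together with a signal table that was checked to be the same counts divided by 1 size factor per library (from 0.973 to 1.06; DESeq2 1.22.1 is named in the submitters' processing notes). Aligner, genome build, annotation and strand setting are not given in the sources used here, and the labels name both a stranded kit and a SMARTER kit. Totals ran from 42744138 to 48854310 counts per library, so for abundant genes counting noise was small beside the differences between animals. It is a larger part of the spread for genes with few reads, such as *Hs3st3a1* (34 to 90 per library) and *Hs3st3b1* (55 to 155).

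Differences were fitted with edgeR 4.0.16 in R 4.3.3 (TMM, filterByExpr by genotype, robust quasi-likelihood fit with genotype as the single term) over 17496 genes, with Benjamini-Hochberg adjustment at 0.05. DESeq2 1.42.0 and limma 3.58.1 were alternatives, as were other normalizations and filters, sex (from *Xist* and Y-linked counts), the muscle marker sum, the replicate number and each library left out. The scripts were tested on simulated data. At a log2 change of 1, edgeR recovered 45 of 87 changed genes and DESeq2 56 of 88. At a log2 change of 2, they recovered 86 of 106 and 92 of 112. False calls numbered 17 in edgeR and 63 in DESeq2. The fitted log2 fold changes of the 38 genes ran from -0.90 to 0.64, so a lack of calls does not show a lack of change. Exon lengths (GENCODE vM21) and promoters (RefSeq, GRCm38.p6) were matched by symbol. Values in every library were given for members with an unadjusted p under 0.05, members without overlap and the most abundant per role. From the other lists, genes meeting both criteria and the most abundant were named. The members and lists were chosen with earlier results of these data known, and *Extl1*, *Chst11*, *Hs6st2*, *Chsy1* and the genes given by ranges were detailed after their values were seen.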

Additional observations from a re-analysis of the deposited data

How the results depend on the processing

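DESeq2 called 466 genes of all tested, the fit without a filter 83, and the fit with the replicate block 1. With 1 library left out, edgeR called between 0 and 544 genes (544 without DTRScxLin replicate 2), and between 0 and 1 of the glycosaminoglycan synthesis genes. Of these, between 1 (without WT replicate 1, against 3.86% of all genes) and 12 (without DTRScxLin replicate 2, against 6.95%) were higher at an unadjusted p under 0.05. Between 1 and 4 of the members were lower at that threshold, and their median log2 fold change lay between 0.088 and 0.19. The muscle covariate gave 1 higher (against 3.18% of all genes), 1 lower and a median of 0.033. Shares of all genes that were lower were not computed for these fits, so the numbers of lower members cannot be compared with them. Of 323 alternative values of 19 genes, 309 kept their direction and side of the threshold, 1 (*Extl1* without DTRScxLin replicate 2) passed it and 13 changed sign. With 0 genes called in the main fit, keeping the side of the threshold says little. A value that shrank also counted as kept, as for *Chpf*, at 0.48 in the main fit and 0.08 with the muscle covariate. The sign changes were those of *B3gat3* (-0.022 with library size normalization, -0.0046 with at least 10 counts in every library, -0.0069 with sex as a term, -0.063 with the muscle covariate, and between -0.039 and 0.051 with 1 library left out), *Chst12* (-0.11 with the muscle covariate, and between -0.042 and 0.15) and *Ndst1* (-0.058, and between -0.0032 and 0.12). The cause was not tested. Same-numbered libraries did not deviate together (correlations -0.188, -0.149 and -0.684). Whether the numbers pair the animals cannot be decided from this, because deviations from the mean of so few libraries are not independent. The block changed the call of none of the 38 genes. Depth limits *Chst13*, which had between 1 and 9 reads per library.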
